A study of Mus musculus with 16 samples.

Results

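Pltp and 9 other genes of plasma lipoprotein metabolism (Apoa4, Apoa5, Apob, Apoc2, Apoe, Mttp, Lipc, Lcat and Angptl4) were described in liver of 16 adult mice. A gene was included when a probe set of the array carried its symbol and no other, and of several such probe sets the one with the highest mean would have been used. This rule found 8 of the 10 genes, each with 1 probe set, among 19938 genes in all. The set was built around Pltp, which was chosen by its diet differences. Its diet difference in wild-type mice had the smallest p of all genes. The Apoc2 probe set also carries the symbol of a read-through gene and was left out, and Lipc was not analysed here. The study crossed 2 genotypes with 2 diets, given for 12 weeks, with 4 mice per group and 1 array per mouse. The groups are wild-type mice on control diet, wild-type mice on high-fat diet, Gli2 heterozygous null mice (Het) on control diet, and Het mice on high-fat diet. Het mice lack 1 functional copy of Gli2, which encodes a hedgehog pathway transcription factor, and the deleted part is not stated. The genotype label of the wild-type mice names Gli1 and not Gli2. The sources used here do not give strain or sex. Values are log2 RMA levels, so that a difference of 1 is a doubling or halving, and they are relative to the other arrays.

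Lipids travel in plasma as lipoproteins, particles with a core of triglyceride and cholesteryl ester under a shell of phospholipid and apolipoproteins. The liver assembles very low density lipoprotein (VLDL) around apolipoprotein B, which Mttp, the microsomal triglyceride transfer protein, loads with lipid. In the circulation lipoprotein lipase removes the triglyceride, helped by apolipoproteins C-II and A-V and held back by Angptl4. High density lipoprotein (HDL) collects cholesterol, which the enzyme Lcat esterifies, and Pltp, the phospholipid transfer protein, moves surface phospholipid from triglyceride-rich particles to HDL and remodels HDL itself. Liver X receptor (LXR) and farnesoid X receptor (FXR), nuclear receptors for sterols and bile acids, are known inducers of Pltp. PPAR alpha, a nuclear receptor for fatty acids, induces Angptl4 and Apoa5 in some settings.

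The promoter of Pltp is shown because this was the gene of the set with the widest spread between arrays. It is the stretch of 250 bases before the RefSeq gene start, chr2:164857709-164857958 of GRCm38.p6, minus strand, and the capitals mark a CCAAT box (read as ATTGG on this strand) and a GC box (read as CCGCCC):
Pltp promoter: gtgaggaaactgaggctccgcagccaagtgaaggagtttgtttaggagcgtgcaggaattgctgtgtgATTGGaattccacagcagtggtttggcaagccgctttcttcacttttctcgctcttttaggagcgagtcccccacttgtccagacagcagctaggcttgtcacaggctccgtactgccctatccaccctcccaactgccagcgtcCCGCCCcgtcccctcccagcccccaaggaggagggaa
Both strands were searched. The CCAAT box, letters CCAAT, begins 182 bases before the start and the GC box, letters GGGCGG, begins 37 bases before it. Of all 32851 such windows of mouse genes, 33.8% hold the first and 32.7% the second. No window of Angptl4 was available, so its promoter was not searched. A Gli motif, letters GACCACCCA, is held by 0.225% of all windows and was in none of the 13 windows of the other 9 members. The paired half-sites of LXR (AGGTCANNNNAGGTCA), FXR (AGGTCANTGACCT) and PPAR (AGGTCANAGGTCA) were found in 0.0152%, 0.00609% and 0.0335% of all windows and in no window of these 9 members. The single half-site AGGTCA, which each of these repeats contains, is in 14% of all windows and was found before Apoc2 and Lipc and not before Pltp. These matches are descriptions of letters and say nothing about binding.

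The 10 hepatocyte markers summed to 134.4 to 136.9 on the log2 scale in each of the 16 livers, and limma called none of them in any of the 7 comparisons. Het_control 2, animal 2 of the Het control group, stood apart from the others. It correlated across genes at 0.961 to 0.979 with each of the rest, which correlated with one another at 0.991 to 0.998. Its values had an interquartile range of 1.95, where the remaining 15 arrays had 2.40 to 2.60. Its levels of Apob, Mttp and Lcat were the lowest of the 16. It was kept, and values without it are given where they matter.

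Pltp was lower on the high-fat diet in both genotypes. These diet differences led to the choice of Pltp and are given as a description, without a test. In wild-type mice on control diet its level was 12.49, 12.35, 11.75 and 12.49, and under the high-fat diet it was 11.39, 11.32, 11.24 and 11.08. The lowest control mouse thus read above the highest mouse on high-fat diet. In Het mice the level was 11.48, 11.50, 12.08 and 11.41 on control diet, against 11.12, 10.87, 10.99 and 11.12 on the high-fat diet. Here too the groups did not overlap, and 3 of the 4 control mice lay close together while animal 3 read higher. The group means were 12.27 ± 0.35 (SD, n = 4) and 11.26 ± 0.13 in wild type, and 11.62 ± 0.31 and 11.02 ± 0.12 in Het. The diet difference was -1.01 (SE 0.16) in wild type, 2.02-fold lower, and -0.60 (SE 0.16) in Het, 1.51-fold lower. Averaged over both genotypes it was -0.80 (SE 0.11), or -0.82 without Het_control 2. Over 24 alternative analyses of each genotype's difference, the values were -1.19 to -0.94 in wild type and -0.73 to -0.44 in Het. Many of these settings leave the difference unchanged, and as the groups do not overlap, leaving out 1 array cannot change its sign. The sign, negative in all of them, is therefore no test. A wild-type control mouse and a wild-type mouse on high-fat diet share a number in their sample titles, and between these 2 Pltp differed by -1.18.

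**Figure D1:**
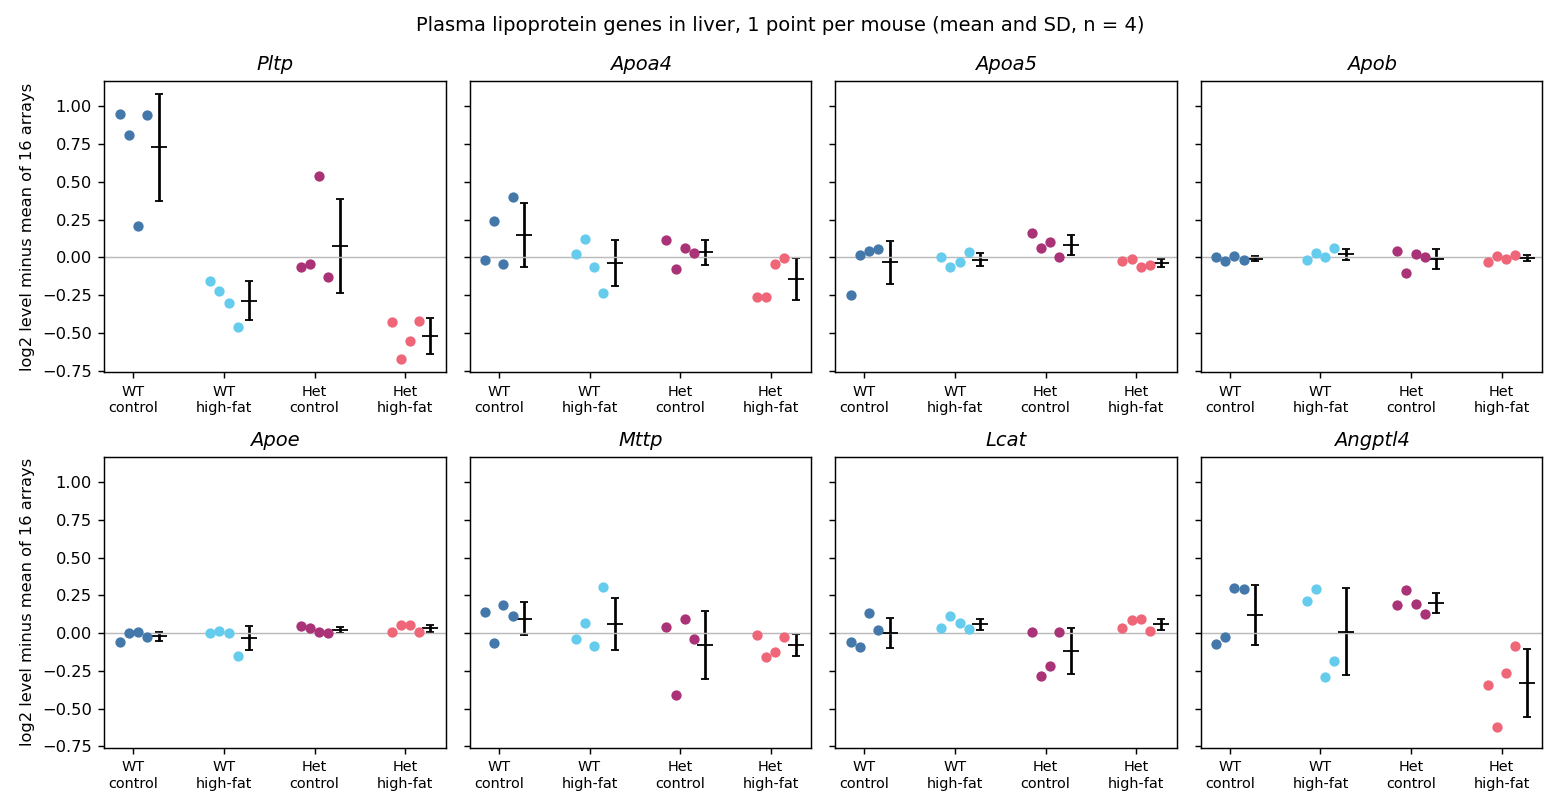
Log2 level of the 8 measured genes, each minus its mean over the 16 arrays, with 1 point per mouse and the mean and SD of each group of 4. Pltp spans 1.62 on the log2 scale, while Apob spans 0.17 and Apoe 0.21.

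In order of its mean level, Pltp ran from wild type on control diet through Het on control diet and wild type on high-fat diet to Het on high-fat diet. The first and second groups overlapped, as the level of 12.08 in Het animal 3 exceeded that of 11.75 in wild-type animal 3. The second group and the one after it were separated only by the distance between 11.41, the lowest Het control mouse, and 11.39, the highest wild-type mouse on high-fat diet, which is less than either SD. Both groups on high-fat diet overlapped, between 11.08 and 11.12. The genotype difference on control diet was -0.65 (SE 0.16) and was not called, with a limma adjusted p = 0.279 over all 19938 genes. This difference, the one on high-fat diet and the average over the diets all share wild-type arrays with the diet differences that led to the choice of Pltp. Over 24 alternatives the difference on control diet ranged from -0.83 to -0.55 with limma adjusted p of 0.0523 to 0.577. On high-fat diet the genotype difference was -0.23 (SE 0.16, 95% confidence interval -0.56 to 0.10, limma adjusted p = 0.9996). Averaged over the 2 diets it was -0.44 (SE 0.11, limma adjusted p = 0.573). The diet difference of Het mice minus that of wild-type mice was 0.42 (SE 0.22, interval -0.05 to 0.89). It contains the wild-type difference by which Pltp was chosen, so it is given without a test.

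The spread of Pltp among control mice was shared by other genes. Over the 16 arrays, and among 9968 genes brighter than the median gene, the levels of Prss8, Acpp, Gpc6, Pdzk1ip1 and Lrpap1 followed Pltp most closely. Prss8 encodes the membrane serine protease prostasin, and its Pearson's r with Pltp was 0.954 (Spearman's rho 0.912). Acpp, an acid phosphatase gene, had an r of 0.925 (rho 0.874), and Gpc6, a cell surface heparan sulfate proteoglycan of the glypican family, 0.912 (rho 0.888). Pdzk1ip1, a small membrane protein gene, had an r of 0.911 (rho 0.897), and Lrpap1, the chaperone of receptors of the LDL receptor family, 0.895 (rho 0.818). These genes were picked as the highest of all, so the values describe likeness and carry no p. Without Het_control 2 the r of the 5 genes was 0.898 to 0.955, but Pdzk1ip1 and Lrpap1 were no longer among the highest 5. Car2, a carbonic anhydrase gene (r 0.930, from 0.735 over all 16), and Mr1 (r 0.917) then took their places. After each group's mean was removed it was 0.843, 0.831, 0.759, 0.920 and 0.718 in the order named. In Pltp 4 arrays read above 12, and over the other 12 the r of the 5 genes was 0.587 to 0.813. Leaving out the 2 arrays farthest from the median of Pltp gave 0.835 to 0.938.

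The same mice stood out in these genes, which follows from their choice by r with Pltp over the same arrays. Pdzk1ip1 read 11.00, 10.98 and 10.71 in wild-type control animals 1, 2 and 4, against 9.70 in animal 3. In Het control mice it read 10.09, 10.22 and 10.02 in animals 1, 2 and 4, against 11.15 in animal 3. Prss8 read 9.73, 10.05 and 10.01 in wild-type control animals 1, 2 and 4 and 9.07 in animal 3. In Het control mice Prss8 read 9.05, 8.98 and 9.10 in the same order and 9.62 in animal 3. In both genes, as in Pltp, wild-type animal 3 was the lowest of its group and Het animal 3 the highest of its own. The animal numbers follow the order of the records, so that sharing the number 3 has no meaning. The mean diet difference of Prss8 was -0.89 in wild type and -0.52 in Het, and that of Pdzk1ip1 -0.93 and -0.90.

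**Figure D2:**
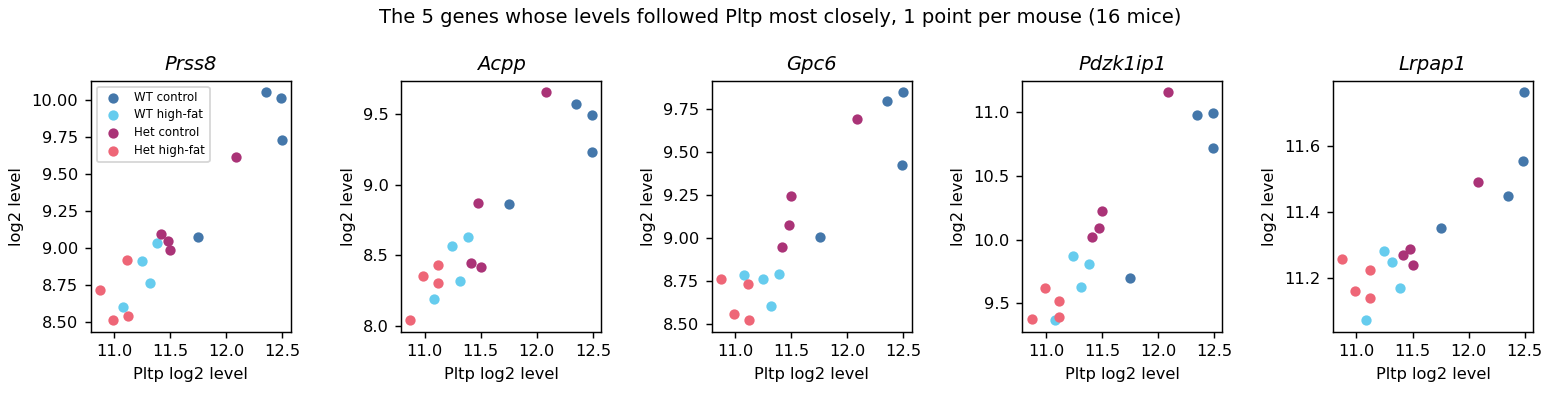
Log2 level of the 5 genes most like Pltp against the log2 level of Pltp, with 1 point per mouse coloured by group. The 4 mice with Pltp above 12 are 3 wild-type control mice and Het control animal 3, and the 8 mice on high-fat diet lie at the lower left of each panel.

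Angptl4, the secreted inhibitor of lipoprotein lipase, fell on the high-fat diet in Het mice. Its level was 11.22, 11.32, 11.22 and 11.15 in Het mice on control diet, against 10.69, 10.41, 10.77 and 10.94 on the high-fat diet. Every Het mouse on high-fat diet read below every Het mouse on control diet. The difference was -0.53 (SE 0.13), 1.44-fold lower, with a limma adjusted p = 0.0494, just under the threshold of 0.05. Over 24 alternatives it ranged from -0.66 to -0.43 with adjusted p of 0.00760 to 0.145, and it passed in 8. With 1 array left out it passed only without Het_control 4 or WT_HFD 2, and without Het_control 2 it was -0.50 (limma adjusted p = 0.0854). With only the 8 Het arrays in the fit the adjusted p was 0.131.

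In wild-type mice Angptl4 showed no such separation. It read 10.96, 11.00, 11.33 and 11.32 on control diet, against 11.25, 11.32, 10.74 and 10.85 on the high-fat diet. Both groups split into a lower and a higher pair and overlapped, and the difference was -0.11 (SE 0.13, limma adjusted p = 0.947). The test of the difference between the genotypes' responses gave -0.41 (SE 0.19, limma adjusted p = 0.607), so that a difference in response was not shown. On high-fat diet Het mice read -0.34 relative to wild type (SE 0.13, limma adjusted p = 0.9996), and on control diet 0.08 (SE 0.13, limma adjusted p = 0.729). Across the 16 arrays the r of Angptl4 with Pltp was 0.500, and 0.0654 after the group means were removed.

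Apoa5, apolipoprotein A-V, which promotes lipolysis by lipoprotein lipase, read slightly lower on the high-fat diet in Het mice without passing the test. In Het mice it read 13.03, 12.94, 12.98 and 12.88 on control diet, against 12.85, 12.86, 12.81 and 12.82 on the high-fat diet. The 2 Het groups did not overlap, yet the difference of -0.12 (SE 0.07) was not called (limma adjusted p = 0.214). In wild-type mice it read 12.62, 12.89, 12.91 and 12.93 on control diet, against 12.87, 12.81, 12.84 and 12.91 on the high-fat diet. Wild-type control animal 1 was the lowest of all 16 mice, and the wild-type difference of 0.02 was smaller than its SE of 0.07.

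Apoa4, apolipoprotein A-IV, a component of chylomicrons and HDL that liver also makes, read slightly lower on the high-fat diet in both genotypes. In wild-type mice it read 12.82, 13.08, 12.80 and 13.24 on control diet, against 12.86, 12.96, 12.77 and 12.61 on the high-fat diet. In Het mice it read 12.95, 12.76, 12.90 and 12.87 on control diet, against 12.57, 12.58, 12.79 and 12.84 on the high-fat diet. The groups overlapped in both genotypes. The difference was -0.19 (SE 0.10, limma adjusted p = 0.838) in wild type and -0.18 (SE 0.10, limma adjusted p = 0.224) in Het. Over both genotypes it was -0.18 (SE 0.07, interval -0.33 to -0.03), which was not called (limma adjusted p = 0.146). Over the 16 arrays the r of Apoa4 with Pltp was 0.701, the highest of the 7 other members, and 0.450 after the group means were removed.

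Lcat, which esterifies cholesterol on HDL, read higher on the high-fat diet in Het mice without passing the test. Its level was 13.20, 12.91, 12.98 and 13.20 on control diet, against 13.23, 13.28, 13.29 and 13.21 on the high-fat diet. The highest control mouse, at 13.20, lay just below the lowest on high-fat diet, at 13.21, and the control mice formed a lower and a higher pair, with Het_control 2 the lowest. The difference was 0.18 (SE 0.07, 95% interval 0.03 to 0.33, limma adjusted p = 0.121), and 0.13 without Het_control 2 (limma adjusted p = 0.309). In wild type it was 0.06 (SE 0.07), from 13.20 ± 0.10 (SD, n = 4) to 13.25 ± 0.04.

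Mttp, needed for VLDL assembly, did not differ by diet beyond its SE in either genotype. It ranged from 11.96 to 12.21 in wild type on control diet and from 11.94 to 12.33 on high-fat diet. In Het mice it ranged from 11.61 to 12.11 on control diet, where Het_control 2 was the lowest, and from 11.87 to 12.01 on high-fat diet. Averaged over diets, Het mice read -0.16 relative to wild type (SE 0.07), which was not called (limma adjusted p = 0.573), and the value was -0.10 without Het_control 2.

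Apob and Apoe varied least. Apob, the structural protein of VLDL and LDL, read between 13.23 and 13.39 in all 16 mice. Only 0.04% of genes had a smaller SD over the 16 arrays than Apob, at 0.04 on the log2 scale. Its 4 differences by diet or genotype were each smaller than their SE, and their 95% intervals together reached from -0.13 to 0.14. Apoe, the ligand by which remnant particles are taken up, read between 13.86 and 14.07. The lowest value belonged to WT_HFD 4 and the other 15 mice read 13.96 or more. The 4 differences of Apoe ran from -0.01 to 0.06, with intervals that together reached from -0.12 to 0.18. Both genes lie near the top of the scale, where the highest level of any gene on any array was 14.35, and whether such levels still follow the amount of RNA was not tested.

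Counted over the 8 genes, limma called 1 by diet in Het mice, Angptl4, against 2.22% of all 19938 genes, or 0.712% called lower. By diet in wild type 0 were called, against 0% of all genes. There 1 of the 8, Pltp, had an unadjusted p under 0.05, beside 6.43% of all genes, and its choice by this p fixed that in advance. Averaged over both genotypes the diet difference of 1 gene, Pltp, was called, against 1.86% of all genes. At an unadjusted p under 0.05 there were 3 of the 8 genes by diet in Het, beside 31.6% of all genes. Averaged over both genotypes there were 4, beside 26.9%. Pltp is in each of these counts and was chosen for its diet differences, so nothing is read from its part in them. By genotype 0 were called on control diet (0% of all genes), on high-fat diet (0.00502%) or over both diets (0.00502%), and 0 in the interaction (0%). At an unadjusted p under 0.05 these comparisons held 1, 1, 2 and 1 of the 8 genes, beside 15.7%, 3.57%, 7.76% and 8.13% of all genes. The groups of 4 mice did not overlap in 1 of the 8 genes by diet in wild type, against 8.5% of all genes, and in 4 of 8 by diet in Het, against 13.7%. The 4 are Pltp, Apoa5 and Angptl4, lower, and Lcat, higher, and for Pltp this was part of the choice. By genotype the groups of all 8 genes overlapped on both diets, where 6.12% and 3.75% of all genes did not. The median difference of the 8 genes was -0.02 by diet in wild type and -0.06 in Het, beside medians of -0.01 and -0.05 over all genes. By genotype it was -0.06 on control diet and -0.06 on high-fat diet, beside 0.04 and 0.01 over all genes. On high-fat diet 7 of the 8 read below 0, as did 46.2% of all genes. Over both diets the median was -0.09, beside 0.03. In a bulk sample, fewer cells of a type and less RNA per cell cannot be told apart.

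**Figure D3:**
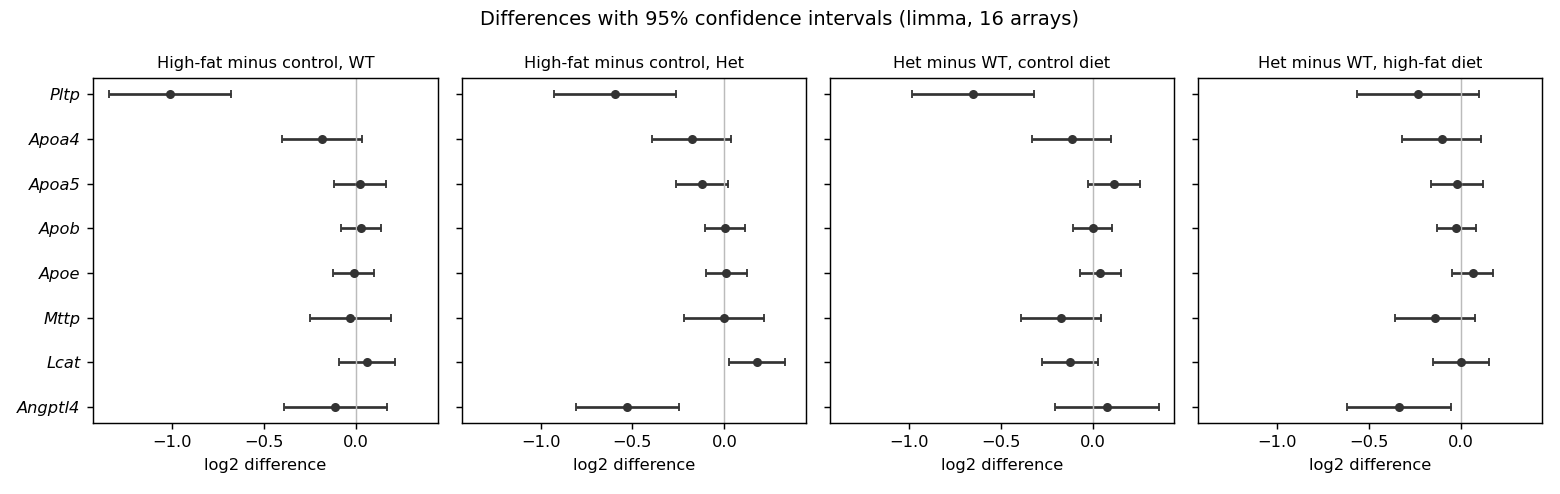
Log2 difference of each gene with its 95% confidence interval, for diet within each genotype and genotype within each diet, from the fit on 16 arrays. The intervals of Pltp lie below 0 for both diet differences and for genotype on control diet. Its diet differences led to its choice, so their intervals are a description. Its genotype difference on control diet shares the wild-type control arrays and was not called. The intervals of Angptl4 lie below 0 for diet in Het and for genotype on high-fat diet, and the latter was not called. The interval of Lcat for diet in Het lies above 0, and this difference was not called. Those of Apob and Apoe include 0 in all 4.

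Several of these genes lie next to relatives in the genome. Apoa4 and Apoa5 belong to a cluster with Apoa1, the main protein of HDL, and Apoc3, an inhibitor of lipolysis. In Het mice, where Apoa4 and Apoa5 differed by -0.18 and -0.12 with diet, Apoa1 differed by -0.09 and Apoc3 by 0.08. In wild type the differences were -0.19 for Apoa4, 0.02 for Apoa5, -0.005 for Apoa1 and 0.02 for Apoc3. The neighbours of Apoe, Apoc1 and Apoc4, differed by -0.10 and 0.02 in Het and by -0.04 and 0.04 in wild type. The genes on either side of Pltp, the cathepsin gene Ctsa and Pcif1, differed by -0.04 and 0.02 with diet in wild type and by 0.09 and -0.07 in Het, where Pltp differed by -1.01 and -0.60. Beyond Ctsa lie Neurl2, which differed by -0.37 in wild type and -0.27 in Het, and Spata25, which differed by -0.25 and -0.17. On the other side, beyond Pcif1, Zfp335 differed by -0.02 in wild type and 0.02 in Het, and Mmp9 by -0.09 and 0.04.

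Of 103 further genes measured from lists of the lipoprotein pathway and its regulators, 5 rose on the high-fat diet in Het mice and 0 fell, against 1.5% of all genes called higher. The lists were chosen with earlier results of these data known, so this count and later counts from them are a description. At an unadjusted p under 0.05 there were 33, a share near the 31.6% of all genes. The genes that rose include 2 of 12 in receptors and uptake. Cd36, the fatty acid translocase that also binds oxidised lipoproteins, rose by 1.44 (SE 0.26, limma adjusted p = 0.0185), and the VLDL receptor gene Vldlr by 0.66 (SE 0.15, limma adjusted p = 0.0415). Among 15 HDL genes 1 rose, Saa4, a serum amyloid protein carried on HDL, by 0.60 (SE 0.15, limma adjusted p = 0.0473), while the HDL apolipoprotein gene Apom read -0.20 (limma adjusted p = 0.0944). Among 20 regulators 2 rose, the fatty acid receptor gene Pparg by 0.60 (SE 0.12, limma adjusted p = 0.0257) and Nr1h3, which encodes LXR alpha, by 0.38 (SE 0.08, limma adjusted p = 0.0352). Without Het_control 2, Vldlr (0.59, limma adjusted p = 0.0743) and Saa4 (0.43, limma adjusted p = 0.0751) no longer passed, while Cd36, Pparg and Nr1h3 did.

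In the other lists no gene but Nr1h3 was called in Het mice. Of 17 genes of apoB particle assembly 0 were called and 6 had an unadjusted p under 0.05, as did 31.6% of all genes, the share that also stands behind the counts of the next lists. The editing enzyme gene Apobec1 read 0.29 (limma adjusted p = 0.0593) and the sorting receptor gene Sort1 -0.62 (limma adjusted p = 0.0723). Of 9 genes of triglyceride lipolysis 0 were called and 2 had an unadjusted p under 0.05, Lmf1, which matures lipases, at 0.26 (limma adjusted p = 0.0525) and the lipase gene Lpl at 0.38 (limma adjusted p = 0.0936). The list of genes induced by LXR, 14 of them measured, includes Nr1h3 itself, and its median difference was 0.09 in Het, or 0.01 without Het_control 2, and -0.07 in wild type. Of 8 genes induced by FXR 0 were called and 2 had an unadjusted p under 0.05. Of 18 genes induced by PPAR alpha 0 were called and 6 had an unadjusted p under 0.05, and their median was 0.15, or 0.06 without Het_control 2. In the same mice Angptl4, a known target of this receptor, fell by 0.53, and the part of the receptor in this was not tested. Over all genes the median difference was -0.05.

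In wild-type mice 0 of the 103 genes were called by diet and 9 had an unadjusted p under 0.05, as did 6.43% of all genes. Those with the smallest p in their lists included Lrpap1 at -0.34 (SE 0.08, limma adjusted p = 0.334), Rnf145, an LXR-induced ubiquitin ligase gene, at -0.55 (SE 0.13, limma adjusted p = 0.325), and the PPAR alpha target Pdk4 at -0.79 (SE 0.20, limma adjusted p = 0.326). The others were Nr0b2 at -0.56 (limma adjusted p = 0.776) and, reading higher, Saa4 at 0.40 (0.622), Lmf1 at 0.18 (0.646) and P4hb at 0.10 (0.810). With both genotypes averaged, 4 of the 103 rose and 1 fell, beside 1.35% and 0.512% of all genes. Saa4 rose by 0.50 (limma adjusted p = 0.0243), Lmf1 by 0.22 (0.0302), Cd36 by 0.81 (0.0368) and Nr1h3 by 0.23 (0.0480), and Rnf145 fell by 0.46 (0.0223). By genotype 0 of the 103 were called on either diet, and 24 and 8 had an unadjusted p under 0.05, beside 15.7% of all genes on control diet and 3.57% on high-fat diet. On control diet 17 of the 18 PPAR alpha targets read lower in Het than in wild type, beside 39.4% of all genes. The median of the 18 was -0.31, beside 0.04 over all genes. Without Het_control 2 these were 16 of 18 and -0.18. In the same comparison all 8 endothelial markers read lower, with a median of -0.30, and 7 of 10 macrophage markers did, with a median of -0.32. Of these markers 0 were called. Without Het_control 2 the counts were 8 of 8 and 8 of 10 and the medians -0.20 and -0.25. The part of such cells in the result was not tested. Angptl4 differed by 0.08 in that comparison. The 2 comparisons that use the Het control mice share those arrays.

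**Figure D4:**
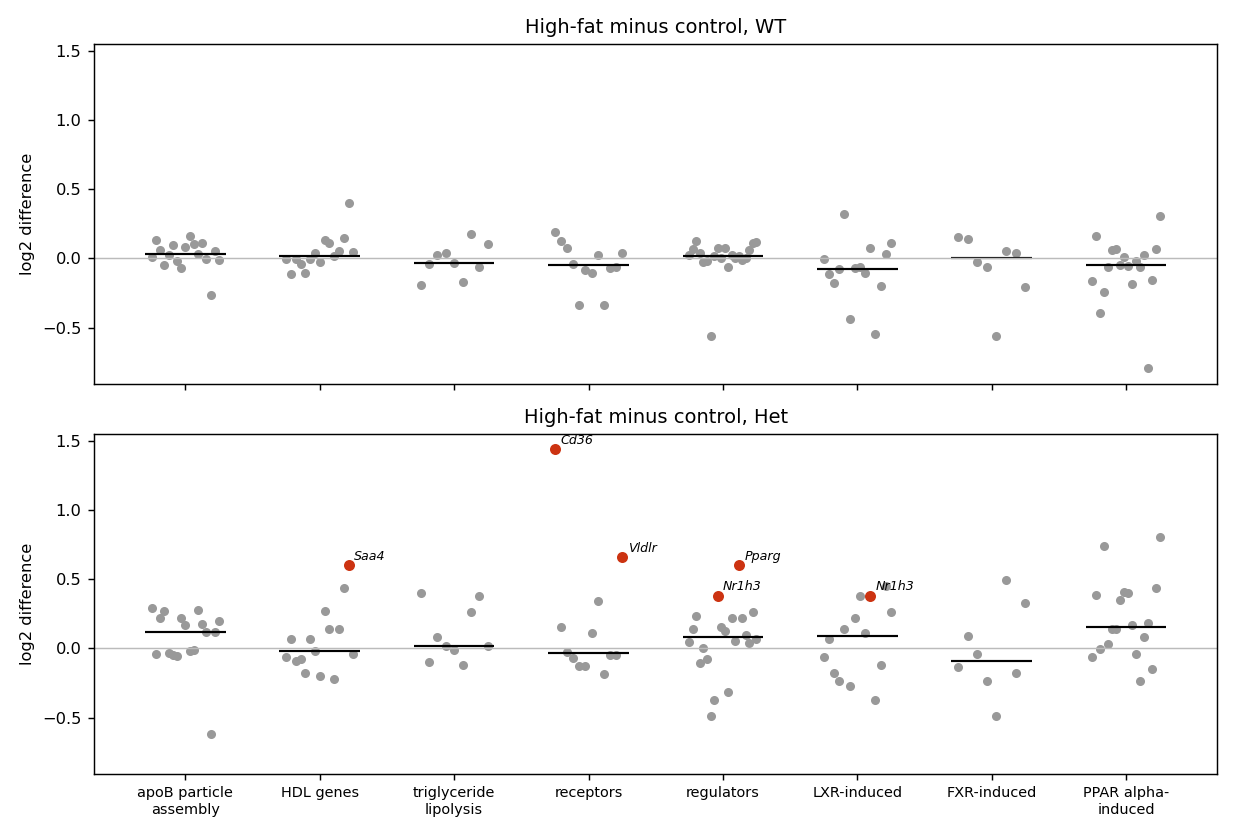
Log2 diet difference of each gene of the 8 lists in wild-type mice (top) and Het mice (bottom), with 1 point per gene, a line at the median of the list and called genes in red with their names. No gene of the lists is called in wild type, and Nr1h3 stands in 2 lists.

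Markers of other cells were read beside these genes, because macrophages also express Apoe and Pltp and the gut makes Apoa4. Of 10 macrophage markers 5 rose in Het mice on the high-fat diet, beside 1.5% of all genes called higher. Without Het_control 2 the count was 2, and the share of all genes in that fit is not given here. Over all genes 59.5% read lower in this comparison and the median was -0.05. All 10 macrophage markers read higher, with a median of 0.47, or 0.46 without Het_control 2. Their summed log2 level was 97.4 to 101.9 in Het mice on control diet and 102.8 to 106.4 on high-fat diet, and 101.5 to 102.7 and 98.8 to 105.2 in wild type. Apoe differed by 0.01 and Pltp by -0.60 in that comparison, and the part of macrophages in either was not tested. Of 10 enterocyte markers 0 were called in Het mice and 9 read lower on the high-fat diet, as did 59.5% of all genes. The median of the 10 was -0.16, or -0.10 without Het_control 2. Fabp2 read higher, with Het means of 10.66 on control diet and 11.31 on high-fat diet. The sum of the 10 enterocyte markers in Het mice was 75.3 to 77.2 on control diet and 74.2 to 75.7 on high-fat diet. In wild type it was 75.3 to 76.3 and 75.1 to 75.9. The part of gut cells in the values of Apoa4 was not tested.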

How the data were processed

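Liver RNA of 16 mice was hybridised to Affymetrix MoGene 1.0 ST arrays, 1 per mouse. The authors deposited log2 levels of probe sets; RMA and Affymetrix Expression Console stand in the submitters' processing notes, without versions or a genome build. RMA equalises the arrays' distributions, so a shift of all transcripts would be removed. Of 35556 probe sets, 21789 had 1 gene symbol, 1621 several and 12146 none in the platform annotation. Symbols were updated by Entrez number through a RefSeq table (GRCm38.p6), which matched 19856 of 19938 genes, and a gene was represented by its brightest probe set. Tests used lmFit and eBayes of limma 3.58.1 (R 4.3.3) with 1 mean per group over 16 arrays, adjusted by the Benjamini-Hochberg method over 19938 genes, and called at an adjusted p under 0.05. The fit was tested on simulated data. The number of arrays limits the precision.

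Animals are numbered in record order, which pairs none. The meaning of the numbers in the sample titles is not stated: 5 of 11 are on more than 1 array. P-values treat the mice as independent. The members and lists were chosen with earlier results of these data known. The rule for named genes took all members, the 2 genes with the smallest p of a list, and the 5 genes with the highest r with Pltp; called genes of a list and genome neighbours were added. Alternatives were other moderation, array weights, title number as a random block, only the compared groups, all probe sets, repeated quantile normalization, brighter genes only, the mean of a gene's probe sets, and each array left out.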

Additional observations from a re-analysis of the deposited data

Results flagged for a closer look

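Of 32 sets of 4 values, 3 held a mouse far from the other 3 of its group, where chance alone gives about 1 in 20. Pltp read 12.08 in Het control animal 3, against 11.41 to 11.50 in the others. Apoa5 read 12.62 in wild-type control animal 1, against 12.89 to 12.93. Apoe read 13.86 in wild-type high-fat animal 4, against 14.02 to 14.03.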

How the results depend on the processing

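The count of members called changed with the analysis. In wild type by diet it was 0, and 1 (Pltp) with array weights, with title numbers as the block, or without WT_control 3, Het_control 2 or Het_control 3; leaving out 1 array gave 0 to 1. Pltp was chosen by this comparison, so these counts are no test of it. By diet in Het it was 1, and 2 with array weights, after repeated quantile normalization or with brighter genes only, 3 with the title number as a block, 0 with only the Het arrays and 0 with all probe sets; leaving out 1 array gave 0 to 2. By diet over both genotypes it was 1, and 3 with the title number as a block; leaving out 1 array gave 1 to 2. The correlation within title numbers was -0.372, so that block narrows the errors. Counts by genotype and interaction stayed at 0 in all alternatives. Of 56 differences, 24 were smaller than their SE, and 15 of these changed sign in some alternative, moving by up to 0.12; none of the other 32 did.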
